A study of Saccharomyces cerevisiae with 16 samples.

Results

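Before the inducer was added, RNA of a budding yeast strain built to induce ROF1 was set beside RNA of a reference strain, DBY12001, on 2 of the 16 arrays of a time course. These are the arrays at 0 min, 1 for each of the chemostat cultures A and B, and they were chosen by their time label. The other 14 arrays hold the same cultures at 5, 10, 15, 20, 30, 45 and 90 min after β-estradiol. Each array carried the culture's RNA in Cy5 (red) and the reference RNA in Cy3 (green), and the dyes were never swapped. A ratio in what follows is the log2 of red over green, so a positive value is higher in the Z3pr-ROF1 strain.

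Both strains are labelled S288C. The haploids of the collection carry a URA3-linked Z3 promoter directly before the start codon of the target gene and the Z3EV activator, driven by the ACT1 promoter, beside a repaired HAP1 gene. They also carry the deletions ura3Δ0, his3Δ1 and lyp1Δ, and a can1Δ allele in which the STE2 promoter drives the his5 gene of fission yeast. The collection is MATa, but an α strain with Z3pr-ROF1 was made as well, and the labels give no mating type for the chemostat strain. It was grown to steady state in minimal medium with phosphate as the limiting nutrient and was sampled before β-estradiol was added. The labels give neither the genotype, the mating type nor the growth medium of DBY12001 when its RNA was made. The parts of strain, mating type and medium in the ratio of a gene therefore cannot be told apart by that ratio alone. The reference was 1 RNA source on every array. The test therefore leaves out the spread of the reference itself, and cultures A and B share its value.

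The labels do not say whether cultures A and B came from separate clones, and each culture lay on its own slide, so culture and slide cannot be told apart. At 0 min the median red signal was 1356 in A and 1366 in B, and the median green signal was 1368 and 1377. Red was well above background at 96.5% of the 12512 spots in A and 97.0% in B, and green at 98.7% and 98.9%, with 0 saturated spots. Of 6225 genes, 5656 were tested. The other 569 had mean signals under the floor of 50 that the authors set on both signals, and they have no order. Their ratio is 0 by construction, except where a spot passed the floor, as for BSC4 (0.08 in culture A).

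Yeast mating type is set by the MAT locus. An α cell makes α1, which turns on the α-specific genes, and α2, which turns off the a-specific genes. An a cell lacks both proteins, so its a-specific genes are on, and copies of each allele also lie silent at HML and HMR. Biotin import and synthesis genes are known to be turned on when biotin is scarce, and the Aft1 iron regulon when iron is scarce. Under phosphate starvation Pho4 turns on acid phosphatases and phosphate transporters. Hap1 is a haem-dependent activator of respiratory genes, and the S288C lineage carries a transposon insertion in HAP1 that was repaired in the collection.

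The comparison asked how far the uninduced strain stood from the reference. In the fit, 17 genes were higher (0.301% of genes tested) and 44 lower (0.778%) at an adjusted p under 0.05 and at least 2-fold, 61 in all (1.08%). The 61 genes had the same sign in both cultures, which their selection on the mean of the same arrays made nearly certain. For 27 of them the ratio was at least 3 on the log2 scale in size. With no minimum size, 1597 genes were higher (28.2%) and 1481 lower (26.2%), 54.4% in all. Without the 0 min array of culture A these counts were 969 and 860, and without that of B 1141 and 1046. The median ratio of all genes tested was 0.00. The cultures differed little: the median SD of a gene's ratio between them was 0.04 on the log2 scale, and across genes, which are not independent replicates, their ratios correlated at 0.977. Small ratios of the kind that pass without a minimum size cannot be told apart from a dye bias of the gene, because no array had the dyes swapped.

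**Figure D1:**
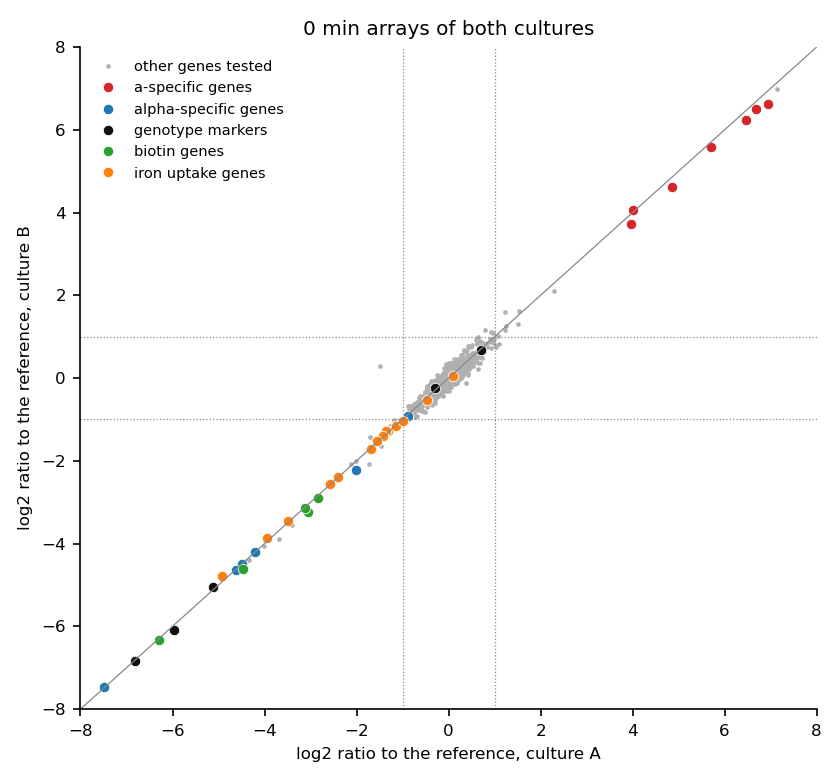
Log2 ratio of red over green at 0 min in culture A (x axis) against culture B (y axis), 1 point per gene tested, with dotted lines at 2-fold and a solid line of equality. The a-specific genes lie at the upper end, the α-specific, marker, biotin and most iron uptake genes at the lower end, and 1 grey point far from the line is YIR042C.

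The markers of the genotype were read before the rest. HIS3 (YOR202W), which encodes imidazoleglycerol-phosphate dehydratase of histidine synthesis, gave a red signal of 21.7 in A and 26.9 in B against 5618 and 5675 in green. Both red signals were under the floor, so the ratio of -6.82 ± 0.10 (SE, limma, adjusted p 8.08e-17) depends on it, and without a floor it was -7.91. LYP1 (YNL268W), the lysine permease, gave 76.7 and 74.4 in red against 4814 and 5007 in green, a ratio of -6.03 ± 0.16 (adjusted p 2.47e-13). CAN1 (YEL063C), the arginine permease, gave 523 and 563 in red against 18316 and 18699 in green, a ratio of -5.09 ± 0.09 (adjusted p 1.25e-15). For these 3 deleted genes the red and green signals of both arrays were far apart and did not overlap. With cultures this close, that follows from ratios of this size and is no further support. The share of all genes tested without overlap was not counted.

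URA3 (YEL021W), the orotidine-phosphate decarboxylase gene that marks the promoter cassette, was present in both channels. Its red signal was 9593 in A and 9555 in B, and its green signal 5928 and 6005. The ratio was 0.68 ± 0.05 (limma, adjusted p 5.44e-08), below 2-fold. On the 14 later arrays it lay between 3.44 and 4.13. HAP1 (YLR256W) stood at -0.27 ± 0.04 (adjusted p 4.42e-05), with red signals of 2975 and 3070 and green signals of 3654 and 3653. The place of the probe in the gene was not known here, so this value checks nothing about the insertion.

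ROF1 (YHR177W), a putative transcription factor with a WOPR DNA-binding domain, could not be ordered at 0 min. Red was 11.5 in A and 17.0 in B, and green was 17.4 and 19.5, all under the floor. Without a floor the fitted ratio was -0.38 (limma, adjusted p 0.225), and with normexp background correction and loess it was -0.09 (adjusted p 0.339). A difference in ROF1 between the uninduced strain and the reference was therefore not detectable at this signal. The study states that its ROF1 strain held less ROF1 transcript than a wild-type strain before induction. Red lay below green on both arrays, but signals under the floor have no order, so no direction was read from them. Because all these signals were under the floor and neither fit passed the adjusted p threshold, these arrays cannot decide that statement. On the later arrays the ratio lay between 3.36 and 4.54.

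The genes beside the altered loci were followed too. Of the genes next to ROF1, FMO1, a flavin-containing monooxygenase, stood at -0.27 (adjusted p 2.98e-06) and STB5, a zinc cluster transcription factor, at 0.01 (adjusted p 0.914). Beside HIS3, DED1 (a translation initiation helicase) stood at 0.22 and MRM1 (a mitochondrial rRNA methyltransferase) at 0.16. Beside CAN1, AVT2, a putative vacuolar amino acid transporter, and NPR2, a regulator of TORC1, stood at -0.28 and -0.27. Beside LYP1, PIK1, a phosphatidylinositol kinase, stood at -0.04 while BSC4 was not tested. YLR255C, next to HAP1, stood at -0.13 (adjusted p 0.0373) and lost that call when either culture was left out at 0 min (0.18 without A, 0.178 without B). The ratio of DED1 was 0.30 without A and 0.14 without B, where it lost the call (adjusted p 0.0836). In the fit of both cultures these ratios spanned 1.21-fold lower (AVT2) to 1.17-fold higher (DED1), against 34.1-fold lower for CAN1. The activator was inserted downstream of HAP1, where the next gene, YLR256W-A, had no value. YLR257W, 2 genes after HAP1, lay outside that span at 0.44 (limma, adjusted p 1.85e-07). On the later arrays its ratio lay between 0.42 and 0.72.

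TIM9, the gene after URA3 at the native ura3Δ0 locus, stood apart from these. It encodes a chaperone of the mitochondrial intermembrane space. Its red signal was 3087 in A and 2807 in B and its green signal 5813 and 5783, a ratio of -0.98 ± 0.04 (limma, adjusted p 8.31e-11), just short of 2-fold. GEA2, an exchange factor for Arf GTPases on the other side of URA3, stood at -0.19.

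**Figure D2:**
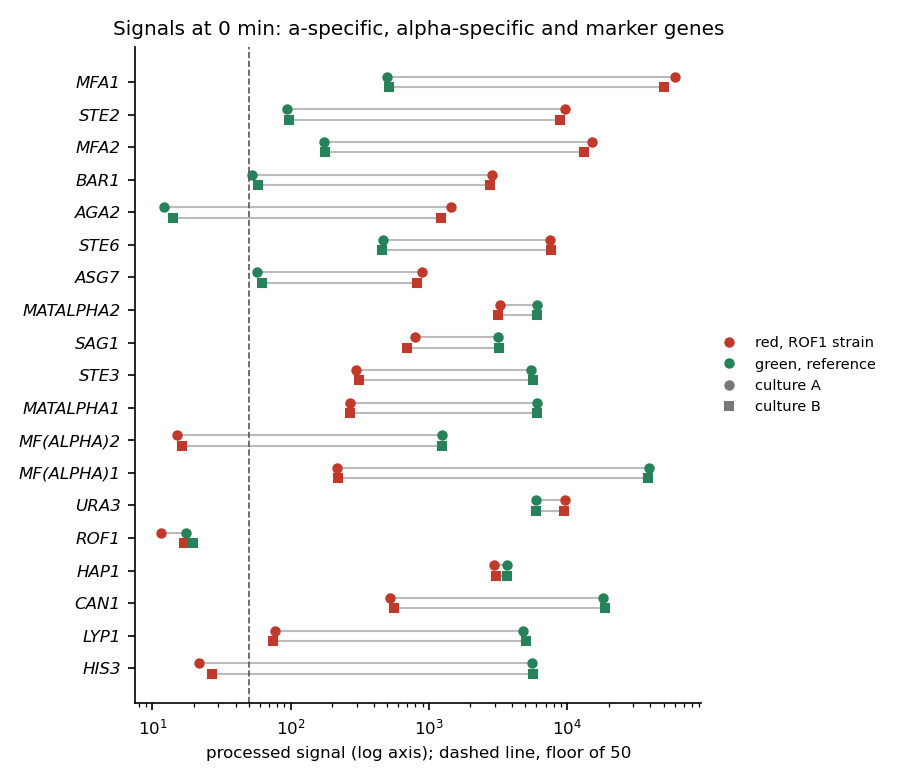
Processed signal at 0 min on a log axis for the a-specific, α-specific and marker genes, red for the ROF1 strain and green for the reference, circles for culture A and squares for culture B; the dashed line is the floor of 50. The 7 a-specific genes have red to the right of green, the 6 α-specific genes and HIS3, LYP1 and CAN1 have green to the right, and both ROF1 signals lie under the floor.

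Mating type genes gave the largest ratios. All 7 a-specific genes were higher in the ROF1 strain at 2-fold or more, against 0.301% of genes tested, and 5 of the 6 α-specific genes were lower, against 0.778%. The median ratio was 5.64 for the a-specific list and -4.35 for the α-specific list. In these lists the red channel had the expression pattern of an a cell and the green channel that of an α cell. The mating type of either strain was not tested in another way. In bulk RNA, fewer cells that express a gene and less RNA of it in each cell cannot be told apart.

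The a-factor precursor genes MFA1 and MFA2 had red signals of 60732 and 50258, and of 15100 and 13269, in A and B. Their green signals were 496 and 511 for MFA1 and 173 and 176 for MFA2, so the ratios were 6.78 ± 0.21 and 6.35 ± 0.18. STE2, the receptor for α-factor, gave 9699 and 8900 in red against 94.1 and 97.3 in green, a ratio of 6.60 ± 0.07. STE6, the exporter of a-factor, gave 7574 and 7637 in red against 468 and 457 in green, a ratio of 4.04 ± 0.06. The highest adjusted p of the 7 genes was that of MFA1, at 1.42e-12 (limma).

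BAR1, the secreted protease that degrades α-factor, gave 2840 and 2779 in red against 52.9 and 58.3 in green, a ratio of 5.64 ± 0.11. ASG7, a regulator of signalling by the pheromone G protein, gave 885 and 816 in red against 57.1 and 61.8 in green, a ratio of 3.84 ± 0.05. AGA2, the binding subunit of a-agglutinin, gave 1453 and 1223 in red, while its green signals of 12.1 and 14.1 were under the floor. Its ratio of 4.74 ± 0.11 depends on the floor and was 6.67 without it and 2.74 with a floor of 200. Red lay above green for these genes on both arrays, which restates their ratios.

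Of the α-specific genes, MF(ALPHA)1, the main α-factor precursor, gave 217 and 222 in red against 38917 and 38797 in green. Its ratio of -7.47 ± 0.07 (limma, adjusted p 7.36e-19) was the lowest of all genes tested. MF(ALPHA)2, the minor precursor, gave 14.9 and 16.4 in red, under the floor, against 1237 and 1244 in green, a ratio of -4.62 ± 0.11 that was -6.33 without a floor. STE3, the receptor for a-factor, gave 297 and 311 in red against 5442 and 5702 in green, a ratio of -4.20 ± 0.04. SAG1, the α-agglutinin, gave 788 and 691 in red against 3189 and 3230 in green, a ratio of -2.12 ± 0.06. Red lay below green for these genes on both arrays, which again restates their ratios.

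The probes of the mating type loci went in both directions. MATALPHA1, which encodes the activator α1, gave 267 and 270 in red against 6036 and 6106 in green, a ratio of -4.50 ± 0.05. The probe of its copy HMLALPHA1 stood at -4.36 and that of YCR041W, beside MAT, at -4.04. HMRA1, the copy of the a1 gene, gave 7052 and 6372 in red against 5.35 and 11.1 in green, under the floor. The ratio of HMRA1, 7.06 ± 0.17 (limma, adjusted p 4.90e-14), was the highest of all genes tested and was 9.77 without a floor. YCR097W-A, next to HMRA1, stood at -3.48 ± 0.09.

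The probes of the α2 and a2 genes stood closer to 0. MATALPHA2 stood at -0.90 ± 0.04 with red signals of 3279 and 3164. Its copy HMLALPHA2, and HMRA2, the a2 gene at HMR, stood at -0.98 each. MAT, HML and HMR share stretches of near-identical sequence. A probe in such a stretch can take up RNA of another of these loci, so the assignment of these signals to a locus is uncertain. HMLALPHA2 and HMRA2 were named after their values were seen.

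AFB1 (YLR040C), a secreted barrier protein against a-factor, was lower as well. It gave 586 and 519 in red against 7562 and 7677 in green, a ratio of -3.79 ± 0.05 (limma, adjusted p 7.61e-17). It was not a member of the α-specific list.

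Haploid-specific genes, which both haploid mating types express, stood near 0. Of 9 tested, 5 were higher and 2 lower with no minimum size, against 28.2% and 26.2% of genes tested, and 0 reached 2-fold by limma in either direction. With culture A left out at 0 min, 1 was lower. Their ratios ranged from -0.19 (STE5, the scaffold of the pheromone kinase cascade) to 0.26 (FUS3, the kinase at its end). GPA1, STE4 and STE18, the G protein subunits, stood at 0.21, 0.20 and -0.11. HO, the mating type switching endonuclease, gave 6007 and 6341 in red against 6758 and 6765 in green, a ratio of -0.13 ± 0.04 (adjusted p 0.00982) that was -0.09 (adjusted p 0.201) when culture A was left out at 0 min.

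Of the 14 pheromone-induced genes, 12 were tested, and 9 were higher and 1 lower with no minimum size, against 28.2% and 26.2% of genes tested. FUS1, which is required for cell fusion, reached 2-fold: it gave 743 and 722 in red against 351 and 355 in green, a ratio of 1.05 ± 0.04 (limma, adjusted p 5.79e-11). Under normexp and loess FUS1 stood at 0.92 and was no longer at 2-fold. AGA1, the anchor subunit of a-agglutinin, stood at 0.82, KAR4, a karyogamy transcription factor, at 0.80, PRM1, a membrane fusion protein, at 0.76 and SST2, which dampens G protein signalling, at 0.49. PRM2 stood at -0.53 (adjusted p 4.54e-07). The list's median was 0.32, and 0.20 under normexp and loess.

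The ratios of these lists were then read on the 14 later arrays, which come from the same cultures and carry the same reference and so are not independent of the 0 min arrays. Of the 17 genes higher at 0 min, 16 stayed above 0 on every later array, the exception being FUS1, with a lowest value of -0.16. Of the 44 lower genes, 43 stayed below 0, the exception being BAP2, with a highest value of 1.04. The ratio of HIS3 ranged from -6.89 to -6.33, that of STE3 from -4.38 to -4.10 and that of STE2 from 5.31 to 6.60. The -6.33 of HIS3 came from culture B at 10 min, the array with the lowest median red signal. That median was 931, and red was well above background at 90.5% of its spots.

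**Figure D3:**
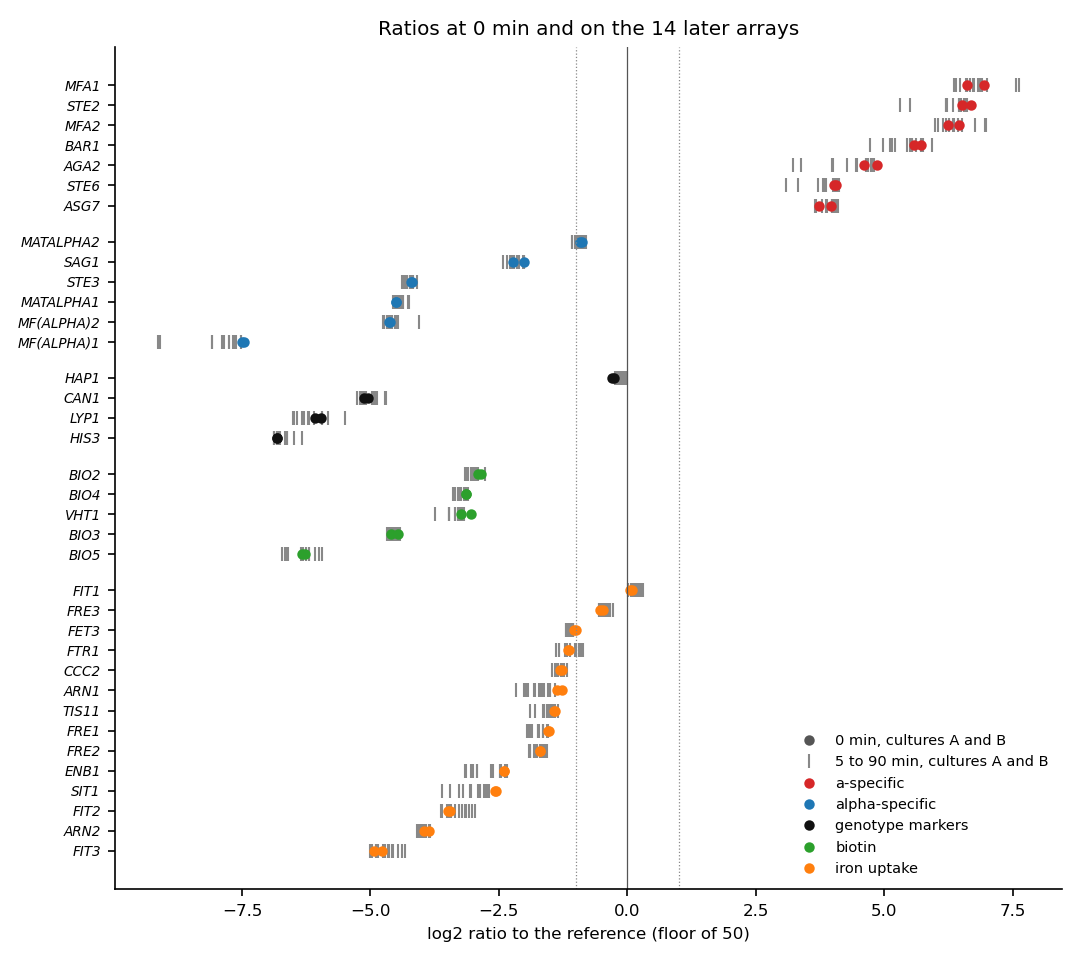
Log2 ratio to the reference of the a-specific, α-specific, marker, biotin and iron uptake genes, with filled circles for the 0 min arrays of cultures A and B and grey ticks for the 14 later arrays; URA3 and ROF1, which the inducer raises, are left out. The a-specific genes stay above 3 and MF(ALPHA)1, HIS3, LYP1, CAN1 and BIO5 stay below -4 on every array.

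Biotin genes were lower throughout the list. All 5 members were lower at 2-fold or more, against 0.778% of genes tested, with a median ratio of -3.15. BIO5, a transporter of a biotin precursor, gave 141 in red in both cultures against 11006 and 11391 in green, a ratio of -6.31 ± 0.12 (limma, adjusted p 1.60e-15). BIO3 and BIO4, which carry out the middle steps of synthesis, stood at -4.53 ± 0.04 and -3.14 ± 0.05. BIO2, biotin synthase, gave 908 and 859 in red against 6564 and 6452 in green, a ratio of -2.88 ± 0.07. VHT1, the plasma membrane biotin importer, gave 3302 and 2979 in red against 27279 and 28096 in green, a ratio of -3.15 ± 0.06.

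BIO3, BIO4 and BIO5 are neighbours on chromosome XIV, and the next gene after BIO3, MNT4, stood at 0.11. BIO2 and VHT1 lie on chromosome VII, and the neighbours of VHT1, SPT4 and GID10, stood at 0.45 and 0.18. The 5 genes therefore lie at more than 1 locus. On the 14 later arrays the ratios of the biotin genes lay between -2.77 (the highest of BIO2) and -6.72 (the lowest of BIO5).

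The iron uptake genes were lower as a list. Of 14 tested, 13 were lower with no minimum size, against 26.2% of genes tested, and 12 at 2-fold, against 0.778%, with a median ratio of -1.48. The mannoproteins FIT3 and FIT2, which hold siderophore iron in the cell wall, gave red signals of 1822 and 1959, and of 1610 and 1647. Their green signals were 55575 and 53726, and 17828 and 18057, so the ratios were -4.85 ± 0.10 and -3.47 ± 0.08. FIT1, the remaining member of that family, gave 550 and 509 in red against 513 and 490 in green, a ratio of 0.08 ± 0.04 (limma, adjusted p 0.116).

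Among the siderophore transporters, ARN2, which takes up triacetylfusarinine, gave 1323 and 1389 in red against 20521 and 20156 in green, a ratio of -3.91 ± 0.05 (adjusted p 1.28e-17). SIT1, for ferrioxamine, stood at -2.57 and ENB1, for enterobactin, at -2.40, while ARN1, for ferrichromes, stood at -1.32. Red lay below green for these transporters on both arrays.

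Genes of the reductive route were lower as well, and their ratios overlapped those of the siderophore genes. FET3, the multicopper oxidase, gave 29561 and 27838 in red against 59065 and 57442 in green, a ratio of -1.02 ± 0.04, and its partner permease FTR1 stood at -1.15. The ferric reductases FRE1 and FRE2 stood at -1.54 and -1.70, and FRE3 at -0.51. CCC2, the copper transporter that loads Fet3, stood at -1.29, and TIS11, an mRNA-binding protein that destabilises transcripts of iron-using pathways, at -1.41. FRE5, beside FIT3 and named after its values were seen, gave 8.40 and 9.36 in red, under the floor, against 201 and 202 in green, a ratio of -2.01 that was -4.51 without a floor. FIT2, FIT3 and FRE5 are neighbours on chromosome XV, and SIT1 lies 2 genes from CAN1 on chromosome V.

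COS8, a subtelomeric gene on chromosome VIII, stood beside ARN2. It was the gene among those called whose probe was not well above background in 1 channel: red was 4.51 and 2.81, against 1054 and 1065 in green. Set against the lowest signal that was well above background on each array, it was at least 16.4-fold lower in the ROF1 strain. Both red signals were under the floor of 50, so the fitted ratio of -4.41 (limma, adjusted p 6.53e-15) depends on it; it was -8.22 without a floor and -2.41 with a floor of 200. YHL049C, on its far side, stood at -0.32. COS genes are a family of similar sequence, so the source of the COS8 signal is uncertain.

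**Figure D4:**
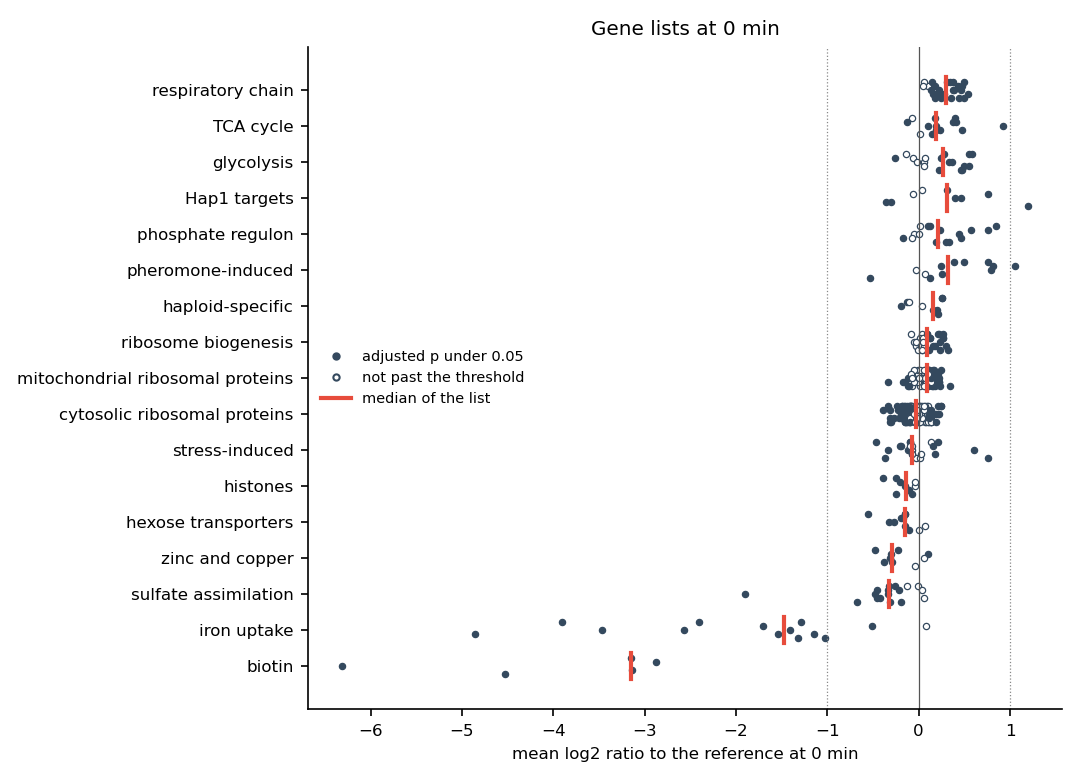
Mean log2 ratio to the reference at 0 min of each tested member of 17 gene lists, filled where the adjusted p was under 0.05, with a red bar at the list's median and dotted lines at 2-fold. Biotin (median -3.15) and iron uptake genes (median -1.48) lie far below 0, while the respiratory chain (0.30), glycolysis (0.26) and phosphate regulon (0.21) lie a little above it.

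CYC1, iso-1-cytochrome c, was the 1 member of the Hap1 target list at 2-fold. It gave 16684 and 15362 in red against 7074 and 6881 in green, a ratio of 1.19 ± 0.04 (limma, adjusted p 1.05e-12), and stayed between 1.12 and 1.34 on the later arrays. Of the 9 Hap1 targets, 5 were higher and 2 lower with no minimum size, against 28.2% and 26.2% of genes tested. CTT1, the cytosolic catalase, stood at 0.76, CYT1, cytochrome c1, at 0.47, YHB1, the flavohaemoglobin, at 0.40 and CYB2, lactate dehydrogenase, at 0.31. NCP1, a cytochrome P450 reductase, stood at -0.36 and ROX1, the repressor of hypoxic genes, at -0.30. CYC7, which encodes iso-2-cytochrome c, stood at 0.03 (adjusted p 0.589).

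Respiratory chain genes were higher by small amounts. Of 26 tested, 23 were higher and 0 lower with no minimum size, against 28.2% and 26.2% of genes tested, and 0 reached 2-fold; the median was 0.30, with a range from 0.04 (ATP7) to 0.54 (COX6). COX6, a subunit of cytochrome c oxidase, gave 10903 and 10665 in red against 7459 and 7355 in green. QCR8, of the bc1 complex, stood at 0.50. In the TCA cycle list 11 of 14 were higher and 1 lower, IDH2 at -0.13, against the same shares, with SDH2 highest at 0.92; when culture B was left out at 0 min, 7 were higher. SDH2, the iron-sulphur subunit of succinate dehydrogenase, gave 11247 and 10818 in red against 5790 and 5909 in green.

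The other subunits of succinate dehydrogenase, SDH1, SDH3 and SDH4, stood at 0.37, 0.40 and 0.41. SDH9 and SHH3, paralogues of subunits of this enzyme, were at 2-fold, with ratios of 1.03 and 1.02, and were named after their values were seen. Both stood under 2-fold under normexp and loess and without the 0 min array of culture B.

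In glycolysis 11 of 18 genes were higher and 1 lower, HXK2 at -0.26, against 28.2% and 26.2% of genes tested, with a median of 0.26. ENO2, PGK1 and CDC19, for enolase, phosphoglycerate kinase and pyruvate kinase, stood at 0.59, 0.55 and 0.55. Their red signals lay between 135413 (ENO2, culture B) and 147196 (PGK1, culture A), with 0 saturated spots. Paralogues such as ENO1 and ENO2 share sequence, so their signals may be mixed.

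The phosphate regulon was higher by small amounts, with 11 of 16 higher and 1 lower, against 28.2% and 26.2% of genes tested, and 0 at 2-fold. The acid phosphatases PHO11, PHO5 and PHO12 stood at 0.84, 0.76 and 0.57, and are similar enough in sequence that their signals may be mixed. PHO84, the high-affinity phosphate transporter, gave 94350.4 and 93350.1 in red against 75558 and 73919 in green, a ratio of 0.33 ± 0.05 (adjusted p 3.68e-05). PHO89, the sodium-coupled transporter, gave 30653 and 27996 in red against 30717 and 29657 in green, a ratio of -0.05 (adjusted p 0.38). The medium of the reference culture is not given, and its part in these ratios was not tested.

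Sulfate uptake and assimilation genes were lower, 13 of 17 with no minimum size and 0 higher, against 26.2% lower and 28.2% higher among all genes tested, with a median of -0.33. SUL1, a high-affinity sulfate permease, reached 2-fold. It gave 531 in A and 429 in B in red against 1755 and 1822 in green, a ratio of -1.90 ± 0.09 (limma, adjusted p 4.58e-10), with -1.72 in A and -2.09 in B. MET6, methionine synthase, stood at -0.68 and SUL2, the second sulfate permease, at -0.47. BAP2, a branched-chain amino acid permease, gave 141 and 136 in red against 386 and 420 in green, a ratio of -1.55 ± 0.06 (adjusted p 1.17e-11). Of the 16 amino acid permeases tested, 9 were lower with no minimum size and 3 higher, against the same 26.2% and 28.2%. With culture A left out at 0 min 7 were lower and 1 higher, and with B left out 6 were lower and 2 higher.

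Other lists without a member at 2-fold were histones (8 of 10 lower, median -0.13), hexose transporters (9 of 11 lower, median -0.15, HXT2 lowest at -0.56) and zinc and copper genes (6 of 9 lower, 1 higher, median -0.29). Ribosome biogenesis genes were higher in 15 of 31 and lower in 0, with a median of 0.09. Cytosolic ribosomal protein genes were higher in 19 and lower in 44 of 131, with a median of -0.03, and mitochondrial ribosomal protein genes were higher in 28 and lower in 6 of 68, with a median of 0.09. When culture A was left out at 0 min, 4 histone genes, 18 cytosolic and 3 mitochondrial ribosomal protein genes were lower, and 15 and 10 of the ribosomal protein lists were higher. When culture B was left out, 27 cytosolic ribosomal protein genes were lower and 6 higher. In the stress-induced list 5 were higher and 8 lower of 22, with 5 and 5 when culture A was left out and 2 and 9 when B was. The 1 zinc and copper gene that was higher lost that call when A was left out. Each of these counts stands against 28.2% higher and 26.2% lower among all genes tested.

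The 11 transcription factor genes that the study named as repressed after ROF1 induction stood near 0 before it. With no minimum size 3 were higher and 3 lower, near the 28.2% and 26.2% of all genes tested, with a median of 0.06 and a range from -0.34 (YAP6) to 0.35 (CIN5). MIT1, the paralogue of ROF1, gave 4518 and 4548 in red against 4672 and 4586 in green, a ratio of -0.02 (adjusted p 0.618). When culture A was left out at 0 min 2 of the factors were higher and 3 lower, and when B was left out 3 were higher and 1 lower. The study chose this list on the same time course.

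Of the 61 genes at 2-fold, 36 belonged to a list and 25 did not. Among the latter, OPT2, an oligopeptide transporter, gave 247 and 215 in red against 46.2 and 44.7 in green, under the floor, a ratio of 2.20 ± 0.10 (limma, adjusted p 3.69e-10). With a floor of 200 OPT2 stood at 0.21 (adjusted p 0.0891). YDL218W stood at 1.58, and GRE1, a hydrophilin induced by stress, gave 12460 in A and 15205 in B in red against 5311 and 5052 in green, a ratio of 1.41 ± 0.09. YBL109W and YGR109W-A stood at 1.41 and 1.26, and the latter was 0 with a floor of 200, where both of its signals are floored.

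Several lower genes outside the lists were named after their values were seen. AAD10, a putative aryl-alcohol dehydrogenase, gave 1642 and 1720 in red against 7179 and 7236 in green, a ratio of -2.10 ± 0.03. TIR1, a cell wall mannoprotein, and VMR1, a vacuolar ABC transporter, stood at -1.21 each. MAM1, a meiotic kinetochore protein, stood at -1.56 with red signals of 51.9 and 62.4 against 169 and 167 in green. With a floor of 200 both of its signals are floored and its ratio is 0 by construction.

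No chromosome stood apart as a whole. The median ratio of the tested genes of a chromosome ran from -0.01 (chromosome XII, 495 genes) to 0.02 (chromosome I, 87 genes), and in culture B from -0.01 to 0.03. Chromosome III, which holds the mating type loci, had 149 genes tested and a median of 0.01, with 2 genes higher and 4 lower at 2-fold.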

How the data were processed

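Per the file headers, Agilent Feature Extraction 12.0.1.1 read each array, and the deposited processed intensity of each colour is background subtracted and dye normalized. The authors set a floor of 50 and also deposited a table of log2 ratios, which equalled the recomputed ones at all spots (0 differed by over 1e-04). From the intensities, the value of a gene was the mean log2 ratio over spots, without outlier flags (6 spots on each 0 min array). For 29 genes with several probes the brightest was taken. A gene was tested if it was well above background in either colour on both 0 min arrays and not under the floor in both colours. Names came from the array, and 5737 of 6225 genes matched RefSeq R64.

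Ratios were tested against 0 with limma 3.58.1 in R 4.3.3 (lmFit, eBayes) in 1 fit of all 16 arrays with a mean per time (8 residual and 6.32 prior degrees of freedom), tested on simulated data first, with Benjamini-Hochberg adjustment over genes. SE is that of the fit. Lists got counts and medians, with no set test. The members and the 36 lists were chosen with earlier results of these data known. The naming rule took markers and their neighbours, the 4 mating lists, the 15 highest and 15 lowest called genes, and up to 3 called genes per direction of each other list. Further list members and neighbours in the text, among them CTT1, COX6, SDH2, ENO2 and PHO84, fall outside this rule. They were picked with their values known. Letters A and B mark the culture, so pairing comes from the labels. The deviations of the cultures at 0 min and at later times correlated at -0.05 to 0.42 across genes, with a median of 0.28. The 8 residual degrees of freedom are differences between the same cultures A and B over time, not independent cultures. The p values may therefore be too small. The number of arrays limits the precision. Figures were drawn with matplotlib 3.10.9. No sequences were used here.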

Additional observations from a re-analysis of the deposited data

How the results depend on the processing

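The call counts at 2-fold were recomputed under 16 alternatives, 2 of them chosen after seeing the data. Without a minimum size 1597 genes were higher and 1481 lower, and with a minimum of 0.58 on the log2 scale (1.5-fold) 66 and 89. Leaving out either 0 min array gave 18 genes higher and between 43 and 45 lower; the lone array is then assumed to vary like the other times. With culture as a replicate block the counts were 17 and 44 and the same genes were called; among the named genes the block changed 1 call without a minimum size, STE18 at -0.11 (limma, adjusted p 0.0442). Under normexp and loess 13 genes were higher and 44 lower, of which 13 and 41 were among those called. A floor of 200 gave 14 and 35, and no floor 18 and 49. With genes above the floor in both colours alone, 13 and 35 were called. Under a floor of 200 FIG1, PRM1, YLR255C and YGR109W-A have both signals floored, at 0. Ratios with 1 signal under the floor have no fixed size: HMRA1 ranged from 5.06 to 9.77, HIS3 from -7.91 to -4.82 and MF(ALPHA)2 from -6.33 to -2.62. The a-specific median was 5.64, but 4.73 under normexp and loess and 6.35 with no floor. Centring moved the all-gene median from 0.004 to -0.001. Signal limits ROF1, and the 569 genes under the floor in both colours have no order.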

Other observations

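Amino acid, nucleotide and lipid synthesis lists, described here by counts with no minimum size and medians, had 0 members at 2-fold by limma. The counts here stand against 28.2% higher and 26.2% lower among all genes tested, and those of histidine synthesis, galactose and seripauperins lie below these shares. In pyrimidine synthesis 6 of 9 genes were higher and 1 lower, with a median of 0.14, from URA4 at -0.22 to FUR1 at 0.33. In histidine synthesis, in which HIS3 acts, 1 of the 6 other genes was higher, HIS4 at 0.34, and 1 lower, HIS2 at -0.16. Of 5 genes often used as auxotrophic markers elsewhere, ADE2 stood at -0.38, LEU2 at -0.35, MET17 at -0.31, LYS2 at 0.02 and TRP1 at 0.28. In nitrogen use 6 of 18 were higher and 6 lower, from DUR3, the urea transporter, at -0.80 to UGA4, a GABA permease, at 0.58. The 7 tested genes of the galactose list had 1 higher and 1 lower, and of the 24 seripauperins, which are near-identical in sequence, 6 were higher and 0 lower. When culture A was left out at 0 min, 1 seripauperin was higher, 0 galactose genes passed in either direction and 0 histidine genes were lower; when B was left out, 4 seripauperins were higher.

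A single gene differed between the cultures by more than 1 on the log2 scale. YIR042C stood at -1.49 in A and 0.28 in B. Its red signal was 26.0 and 180, and its green signal 140.5 and 148. On the later arrays its log2 ratio ranged from -1.75 to 0.81. Some genes beside strongly differing ones had ratios near 2-fold and were named after their values were seen. GYP8, next to STE2, stood at 0.97 (limma, adjusted p 2.28e-11), and BST1, on the other side of STE2, at 0.01. YLR041W, whose systematic number follows that of AFB1, stood at 0.91. YNL146W, next to MFA2, stood at -1.05, with red signals of 47.9 and 45.8, under the floor. PCA1, next to SUL1, stood at -0.73.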
